A study of Rattus norvegicus with 63 samples.

Results

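The shift from the first to the second wave of transcripts after a glucocorticoid was examined in rat kidney by setting 3 arrays hybridised with RNA taken 4 h after an injection of methylprednisolone against 3 arrays taken at 2 h. All probe sets of the main array type were compared. These 6 libraries are part of 52 libraries on that array type, in a series of 63 arrays, and 9520 of its 15923 probe sets passed the filter on low values. Between 2 h and 4 h 7 probe sets rose and 12 fell, 19 in all. None was called once 2 h replicate 1 or 4 h replicate 2 was left out. The increases included the triglyceride lipase gene Pnpla2, the translational repressor gene Eif4ebp3 and Hsd11b2, whose enzyme inactivates natural glucocorticoids. The decreases included endothelin-1, the dendritic cell and lymphocyte surface molecule Cd83 and the immediate early factor Egr3.

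Methylprednisolone is a synthetic glucocorticoid. It binds the glucocorticoid receptor, which moves into the nucleus and acts on DNA directly, and the genes it induces or represses in this way make up the primary response. Products of those genes then alter further genes, the secondary response, which needs new protein and so comes later. In kidney, glucocorticoids are known for effects on sodium transport, on acid and ammonia handling, on amino acid and fat use, and for damping inflammatory genes.

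Every rat whose kidney RNA is compared here had received methylprednisolone, the 2 h group being killed 2 h after the injection and the 4 h group 4 h after it. Both groups hold total RNA of kidney from Rattus norvegicus. Further libraries used below are 4 without injection (0 h) and 3 at each other time. The labels used here give no dose, route, strain, sex, age or hour of day, and do not tell whether each numbered sample is another animal. The p-values therefore rest on a spread among libraries that could be technical. Arrays measured RNA level alone, so direct targets of the receptor and targets of its products cannot be told apart by this comparison. Values are intensities scaled per array by the authors. Differences are 4 h minus 2 h in log2(intensity + 7.63), with standard errors and adjusted p from limma fitted over all 17 times, and a probe set passed at an adjusted p under 0.05. A mean level at a time is the mean of these log2 values turned back to an intensity, and its SD is on the log2 scale (n = 3, and n = 4 at 0 h).

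Both groups carried the defining transcripts of kidney: the sodium-phosphate cotransporter Slc34a1 of the proximal tubule ranged from 3278 to 4281 over the 6 libraries, and the thick limb gene Umod from 2732 to 3991. Among the 6 libraries 2 stood apart. In 2 h replicate 2 the liver transcript Alb was at 793, against 34.4 to 55.6 in the other 2 h libraries and 14.3 to 42.9 at 4 h, and the summed signal of 9 liver markers was 1894, the highest of all 52 libraries. Its summed erythroid signal was 2293, against 687 and 802 in the other 2 h libraries. Its acute-phase transcript Fga stood at 523, against 2139 and 2509 in the other 2 h libraries and 1863 to 2149 at 4 h. All 6 were above the Fga median of 69.7 over all 52 libraries. Lcn2, another acute-phase transcript, was at 390 to 2053 in the 6, against a median of 181 over all 52. The other library that stood apart, 4 h replicate 2, had an array median of 65.6, the lowest of all 52 (65.6 to 83.3).

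The 7 increases made up 0.0735% of the probe sets tested and the 12 decreases 0.126%. At an unadjusted p under 0.05 there were 508 higher (5.34%) and 818 lower (8.59%), and the libraries of both groups did not overlap for 914 higher (9.6%) and 1105 lower probe sets (11.6%). The median difference of all tested probe sets was -0.02. The calls rested on particular libraries: without 4 h replicate 2 limma called none in either direction (586 at an unadjusted p under 0.05), and without 2 h replicate 1 none either (1044). Without 2 h replicate 2 it called 4 higher and 11 lower, of which 4 and 5 were among the 19. Leaving out 2 h replicate 3 gave 9 higher and 10 lower, again with 4 and 5 of the 19. Without 4 h replicate 1 it called 45 higher and 141 lower, which held all 19. Without both libraries that stood apart it called none (478 at an unadjusted p under 0.05), and without arrays that carry the letter b or c in their titles, whose meaning the labels do not state, 2 higher and 0 lower. Centring each array on its median turned the split to 12 higher and 5 lower, so the balance of direction depends on the scaling. All 19 differences kept their sign in every alternative that tested them. Leaving out libraries could not have turned a sign, since the groups did not overlap for any of the 19, so this is no separate support. In bulk tissue, fewer cells of a type and less RNA per cell cannot be told apart.

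The 5' ends of the genes that moved are shown first, since transcription factors bind there. RefSeq windows on GRCr8, from 250 bases before a start to 50 after it, were matched by symbol for 6 of the 7 increased genes and 8 of the 9 decreased genes with a symbol. The 4 windows below, of 2 increased and 2 decreased genes that also passed in a second interval, were picked as examples after their values were seen. Pnpla2 lies at chr1:205982029-205982328 (plus strand), Csrp2 at chr7:48235165-48235464 (plus strand), Edn1 at chr17:22666638-22666937 (minus strand) and Cd83 at chr17:21112628-21112927 (minus strand). Capitals mark matches, on either strand, to the GC box GGGCGG, the TATA box TATAAA, the FOXO motif TGTTTAC, the GATA motif AGATAA, the AP-1 motif TGANTCA, or AGAACA, the shorter part of the glucocorticoid response element, which was also searched whole.
Pnpla2: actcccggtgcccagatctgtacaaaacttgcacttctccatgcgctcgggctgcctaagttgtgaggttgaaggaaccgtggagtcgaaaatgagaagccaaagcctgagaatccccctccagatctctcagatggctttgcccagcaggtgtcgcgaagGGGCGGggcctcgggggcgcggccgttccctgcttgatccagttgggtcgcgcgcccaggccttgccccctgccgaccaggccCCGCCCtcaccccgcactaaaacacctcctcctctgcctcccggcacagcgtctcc
Csrp2: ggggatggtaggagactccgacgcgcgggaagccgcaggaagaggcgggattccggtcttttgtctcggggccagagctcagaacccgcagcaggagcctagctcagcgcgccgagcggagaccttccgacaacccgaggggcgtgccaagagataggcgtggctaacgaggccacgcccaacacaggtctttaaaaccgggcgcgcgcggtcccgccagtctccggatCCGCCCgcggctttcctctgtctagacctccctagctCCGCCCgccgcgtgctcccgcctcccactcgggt
Edn1: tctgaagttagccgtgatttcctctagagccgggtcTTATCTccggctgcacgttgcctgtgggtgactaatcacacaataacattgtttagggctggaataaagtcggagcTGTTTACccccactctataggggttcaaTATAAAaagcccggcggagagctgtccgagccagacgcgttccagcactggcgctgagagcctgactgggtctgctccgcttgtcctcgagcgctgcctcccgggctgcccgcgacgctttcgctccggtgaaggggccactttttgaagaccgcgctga
Cd83: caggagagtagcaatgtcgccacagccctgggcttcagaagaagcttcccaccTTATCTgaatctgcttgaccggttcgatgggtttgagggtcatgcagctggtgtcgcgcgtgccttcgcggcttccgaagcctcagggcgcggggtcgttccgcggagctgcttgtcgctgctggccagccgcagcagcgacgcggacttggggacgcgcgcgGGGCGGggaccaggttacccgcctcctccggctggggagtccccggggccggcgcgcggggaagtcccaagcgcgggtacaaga
The windows of Pnpla2 and Csrp2 hold 2 GC boxes each and no other motif searched. The Edn1 window holds 1 TATA box, 1 FOXO motif and 1 GATA motif, and the Cd83 window 1 GC box and 1 GATA motif. Over all matched genes, the GC box was found for 5 of the 6 increased genes and 3 of the 8 decreased genes, against 33.1% of 33469 rat promoter windows of the same length. A gene was counted if any of its windows matched, and Ctdspl and Mlxipl have 2 windows each, whereas the shares over all are per window. The TATA box was found for 0 of 6 and 3 of 8, against 14.2%. Counted from the annotated start, those 3 matches began at -110 in Edn1, -81 in Lhfpl2 and -25 in Bpifa5. No window of either group held the full glucocorticoid response element, which 0.0149% of all windows hold, and its shorter part was in 0 of 6 and 1 of 8 (20.7% of all). The FOXO motif was in 0 of 6 and 1 of 8 (3.78% of all), the AP-1 motif in 0 of 6 and 1 of 8 (7.33%), and the GATA motif in 0 of 6 and 2 of 8 (11.6%). These matches describe letters in a short window and were not tested.

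**Figure D1:**
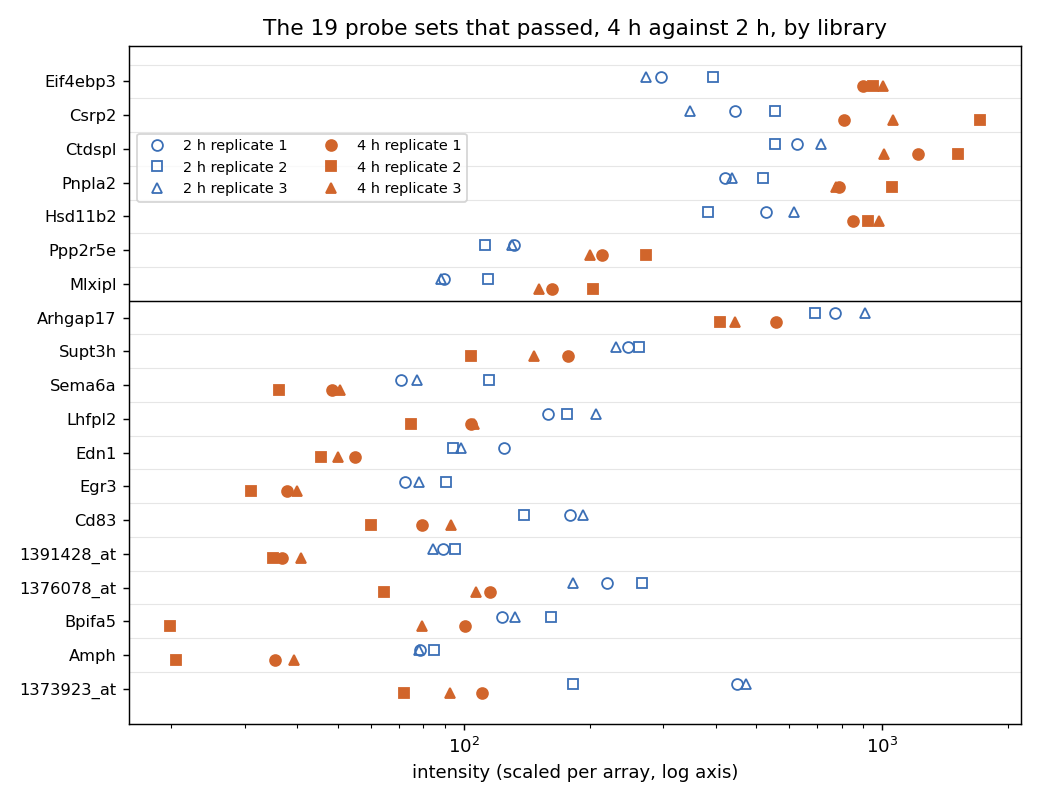
Intensity (log axis, scaled per array) of the 19 probe sets that passed, 1 row each, with open blue symbols for the 3 libraries at 2 h and filled orange symbols for the 3 at 4 h; the shape gives the replicate. No row has overlapping groups, and the orange square, 4 h replicate 2, lies lowest in all 12 decreases and highest in 5 of the 7 increases.

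Eif4ebp3 had the largest increase among the 7 that passed. It encodes a 4E-BP protein, which holds back cap-dependent translation by binding the initiation factor eIF4E. Its intensities were 296, 393 and 273 at 2 h and 898, 950 and 1007 at 4 h. Each 4 h library was above every 2 h library by a wide margin, and the difference was 1.56 ± 0.31 (adjusted p = 0.0234, limma). The mean level was 177 at 0 h (SD 0.05), 317 at 2 h (SD 0.27), 950 at 4 h (SD 0.08) and 1414 at 6 h (SD 0.53), with 202 at 30 h (SD 0.43), so most of the climb from the 0 h level lay after 2 h.

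Csrp2 encodes a LIM-domain protein of smooth muscle and stellate cells. It measured 445, 556 and 347 at 2 h and 810, 1714 and 1063 at 4 h. The groups did not overlap, although 4 h replicate 2 was far above the other 4 h libraries, and the difference was 1.35 ± 0.28 (adjusted p = 0.0234, limma). Its 2 h level of 441 did not pass against the 339 at 0 h (0.37, adjusted p = 0.54), whereas at 4 h it passed (1.73, adjusted p = 9.4e-06).

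Pnpla2 encodes adipose triglyceride lipase, which takes the first step in releasing fatty acids from stored triglyceride. Intensities of 421, 518 and 437 at 2 h stood against 789, 1057 and 775 at 4 h. The difference of 0.91 ± 0.16 had the lowest adjusted p of all probe sets (0.021, limma). Pnpla2 had already risen by 2 h, by 1.05 against 0 h (adjusted p = 1.2e-05), and the level continued from 457 at 2 h (SD 0.16) to 1045 at 6 h (SD 0.30), falling back to 271 at 12 h (SD 0.28). Ctdspl, a small phosphatase of the C-terminal domain family, took the same form: 624, 555 and 716 at 2 h and 1218, 1522 and 1013 at 4 h. It rose by 0.96 ± 0.22 (adjusted p = 0.035, limma) after an increase of 1.54 by 2 h against 0 h (adjusted p = 1e-06). Its mean level was 1234 at 4 h (SD 0.29), 1116 at 6 h (SD 0.42) and 238 at 12 h (SD 0.21).

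Mlxipl encodes ChREBP, the transcription factor that switches on glycolytic and lipid synthesis genes when glucose is plentiful. It was dim at 2 h, with 89.6, 114 and 88 in the 3 libraries, and measured 163, 204 and 152 at 4 h. The difference was 0.78 ± 0.17 (adjusted p = 0.0347, limma). At 2 h it had not passed against 0 h (0.34, adjusted p = 0.29). Ppp2r5e, a regulatory B56 subunit of protein phosphatase PP2A, measured 132, 113 and 130 at 2 h and 214, 273 and 200 at 4 h, a difference of 0.83 ± 0.17 (adjusted p = 0.0234, limma).

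The course of Hsd11b2 had another form. Its enzyme, 11-beta-hydroxysteroid dehydrogenase type 2, inactivates natural glucocorticoids in the distal nephron and so keeps the mineralocorticoid receptor open to aldosterone. It measured 527, 384 and 614 at 2 h and 852, 926 and 983 at 4 h, the lowest value coming from 2 h replicate 2. The difference was 0.87 ± 0.20 (adjusted p = 0.0472, limma), the closest to the threshold among the increases. With single libraries left out it lay between 0.68, for 2 h replicate 2, and 1.02, for 2 h replicate 3, and it passed only without 2 h replicate 3 or without 4 h replicate 1. The mean level was 813 at 0 h (SD 0.20), 499 at 2 h (SD 0.34), 919 at 4 h (SD 0.10) and 557 at 5 h (SD 0.33). The 2 h level was below the 0 h level (-0.69, adjusted p = 0.0228), and the 4 h level did not pass against 0 h (0.18, adjusted p = 0.57). Hence the increase was measured from a low value at 2 h, not above the level of uninjected rats.

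A further 3 genes were next by unadjusted p among increases and did not pass. Rhot2, a GTPase of the mitochondrial outer membrane, differed by 0.70 ± 0.16 (adjusted p = 0.0566, limma), Acat2, a cytosolic thiolase, by 0.81 ± 0.20 (adjusted p = 0.0637), and Fkbp5, described below, by 0.99 ± 0.24 (adjusted p = 0.0637).

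Among the decreases, Edn1 was the gene with a first-hour increase. It encodes endothelin-1, a vasoconstrictor peptide that also acts on the collecting duct to limit sodium uptake. Edn1 measured 125, 94.5 and 98.3 at 2 h and 55, 45.5 and 50.1 at 4 h. Every 4 h library was at about the 0 h level, and the difference from 2 h was -0.97 ± 0.20 (adjusted p = 0.0234, limma). The levels at 0 h and 4 h were dim, near the filter at an intensity of 52.3. The mean level went from 56.7 at 0 h (SD 0.20) to 144 at 0.5 h (SD 0.15), was 76.9 at 0.75 h (SD 0.15), 108 at 1 h (SD 0.35) and 105 at 2 h (SD 0.20), and stood at 50.1 at 4 h (SD 0.12). Against 0 h it passed at 2 h (0.81, adjusted p = 0.006) and not at 4 h (-0.16, adjusted p = 0.62).

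Cd83, a surface molecule of activated dendritic cells and lymphocytes, measured 179, 139 and 192 at 2 h and 79.5, 60 and 93.4 at 4 h. It fell by 1.07 ± 0.23 (adjusted p = 0.0262, limma). The mean level had been 119 at 0 h (SD 0.06) and 290 at 0.5 h (SD 0.31), so at 4 h, with 76.5 (SD 0.29), it was under the 0 h value without passing against it (-0.59, adjusted p = 0.055). Summed signals of macrophage and neutrophil markers (17 on the array) were 4443 to 4778 at 2 h and 4327 to 4637 at 4 h. Those of 13 lymphocyte markers, of which 3 were measured, were 548 to 712 at 2 h and 386 to 564 at 4 h; the part of these cells in the decrease of Cd83 was not tested.

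Egr3, a zinc-finger factor induced by growth signals, measured 72.4, 90.7 and 78.3 at 2 h and 37.9, 31.1 and 40 at 4 h. It fell by 1.00 ± 0.23 (adjusted p = 0.0383, limma), between dim levels on either side of the filter, which lies at an intensity of 52.3. Neither time passed against 0 h (0.51, adjusted p = 0.2 at 2 h and -0.49, adjusted p = 0.11 at 4 h). Egr3 no longer passed in 12 of the 17 alternatives that tested it. The same held in 13 of 17 for the probe set 1391428_at, described below, and in 10 of 18 each for Supt3h and Hsd11b2.

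Arhgap17, a GTPase-activating protein, was the brightest decrease, with 773, 692 and 909 at 2 h and 559, 411 and 445 at 4 h. It fell by 0.74 ± 0.16 (adjusted p = 0.0347, limma). Lhfpl2, a tetraspan membrane protein, measured 159, 177 and 207 at 2 h and 104, 74.8 and 106 at 4 h, a difference of -0.88 ± 0.18 (adjusted p = 0.0234, limma). Its level stayed low at 6 h (71.3, SD 0.23) and 8 h (91.6, SD 0.36) and was 161 at 12 h (SD 0.05). Sema6a, a transmembrane semaphorin that guides cells and vessels, went from 71, 115 and 77.3 to 48.5, 36.2 and 50.7 (-0.84 ± 0.17, adjusted p = 0.0234, limma). Supt3h, a subunit of the SAGA coactivator complex, went from 246, 262 and 232 to 177, 104 and 147 (-0.79 ± 0.17, adjusted p = 0.033, limma). All 4 of these genes were above their 4 h mean level again at 12 h, with levels of 638 for Arhgap17, 161 for Lhfpl2, 94.8 for Sema6a and 258 for Supt3h.

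Amph and Bpifa5 had their lowest mean level between 0 and 18 h at 4 h, and higher levels on both sides of it. The same held for Egr3 (36.2 at 4 h), Sema6a (44.7) and Supt3h (139). It also held for the probe sets 1376078_at (93) and 1391428_at (37.5), described below. Amph, amphiphysin, which bends membrane in endocytosis, measured 78.7, 84.9 and 78.2 at 2 h and 35.3, 20.5 and 39.3 at 4 h (-1.20 ± 0.23, adjusted p = 0.0234, limma), and its mean level was 68.1 at 5 h (SD 0.43). Bpifa5, a member of a family of lipid-binding secreted proteins, measured 124, 162 and 133 at 2 h and 101, 19.9 and 79.7 at 4 h (-1.20 ± 0.25, adjusted p = 0.0234, limma). Its 4 h spread was wide (SD 1.06), because 4 h replicate 2 was far below the others, and without that library the difference was -0.59. Etfrf1, a regulator of mitochondrial electron-transfer flavoprotein, was the next gene by unadjusted p and did not pass (-0.65 ± 0.16, adjusted p = 0.0637).

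A further 3 decreased probe sets had no gene symbol in the annotation used. Probe set 1373923_at had the largest decrease among those that passed, from 449, 183 and 472 at 2 h to 111, 71.8 and 92.5 at 4 h (-1.82 ± 0.40, adjusted p = 0.0347, limma). Probe set 1376078_at was already lower than at 0 h by 2 h (-1.16, adjusted p = 0.0017) and fell by another 1.18 ± 0.26 (adjusted p = 0.033). Probe set 1391428_at fell by 1.11 ± 0.26 (adjusted p = 0.0491).

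**Figure D2:**
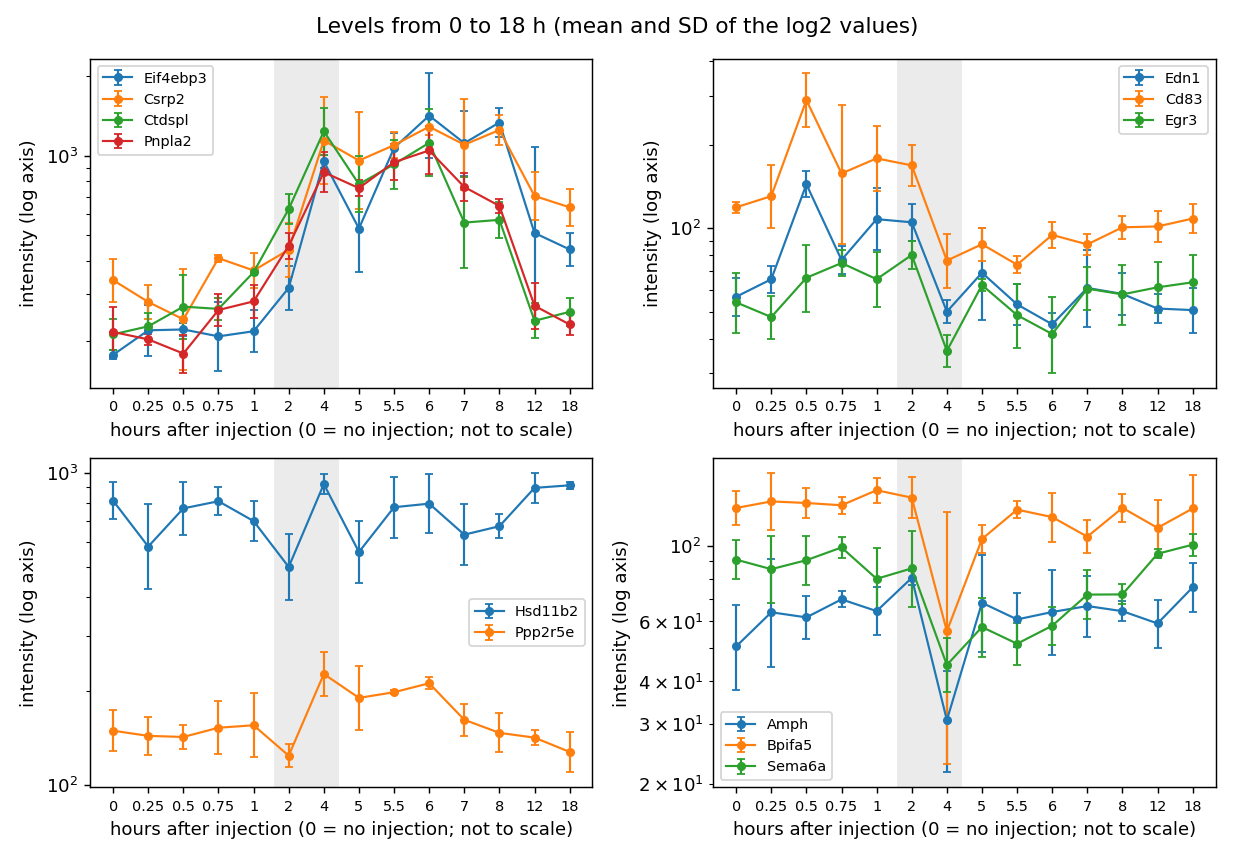
Mean intensity (log axis) from 0 to 18 h for 12 of the named genes, in 4 panels; bars are the SD of the log2 values of the libraries at each time, times are evenly spaced and not to scale, and the grey band covers 2 h and 4 h. Eif4ebp3, Csrp2, Ctdspl and Pnpla2 climb through the band to about 1000, and Edn1 and Cd83 have left their 0.5 h maximum behind. Hsd11b2 returns from its low value at 2 h. Amph, Bpifa5, Sema6a and Egr3 are at their lowest at 4 h.

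A second interval was used to see which of these changes were also present in libraries that take no part in the 4 h and 2 h means. Those libraries do enter the spread of the shared fit, so the tests of both intervals are not independent. The 6 libraries at 5 and 5.5 h were set against the 6 at 0.75 and 1 h in the same fit, and 354 probe sets were higher (3.72%) and 344 lower (3.61%). Of the 7 increases from 2 h to 4 h, 5 passed there too (71.4% of the 7, 1.41% of the 354): Eif4ebp3 by 1.79, Pnpla2 by 1.61, Ctdspl by 1.43, Csrp2 by 1.38 and Mlxipl by 0.67. Ppp2r5e differed by 0.32 (adjusted p = 0.0939) and Hsd11b2 by -0.19 (adjusted p = 0.509), so neither passed. Of the 12 decreases, 8 passed (66.7% of the 12, 2.33% of the 344), with differences of -0.99 for Cd83, -0.90 for Arhgap17, -0.66 for Lhfpl2, -0.63 for Sema6a, -0.53 for Edn1 and -0.50 for Supt3h, and with the unnamed 1376078_at and 1391428_at. Egr3 (-0.31, adjusted p = 0.302), Bpifa5 (-0.24, adjusted p = 0.5), Amph (-0.05, adjusted p = 0.913) and 1373923_at (-0.51, adjusted p = 0.345) did not pass there. The number that passed in both rests on the same libraries as the calls themselves. It was 0 in both directions without 2 h replicate 1 or without 4 h replicate 2, and 19 higher and 23 lower without 4 h replicate 1. The 8 decreases became 5 when 2 h replicate 2 was left out, 3 for 2 h replicate 3 and 4 for 4 h replicate 3.

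Most probe sets of the wider sets from that interval had a difference of the same sign between 2 h and 4 h, without passing. Of the 354 higher probe sets, 315 (89%) had a difference above 0 between 2 h and 4 h, against 47.4% of all tested. Their libraries did not overlap in the same direction for 163 (46%), against 9.6% of all, and the median difference was 0.32. Of the 344 lower ones, 297 (86.3%) had a difference below 0 against 52.6% of all, 145 (42.2%) did not overlap in that direction against 11.6%, and the median was -0.32. These are counts beside a background, with no test of the set.

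**Figure D3:**
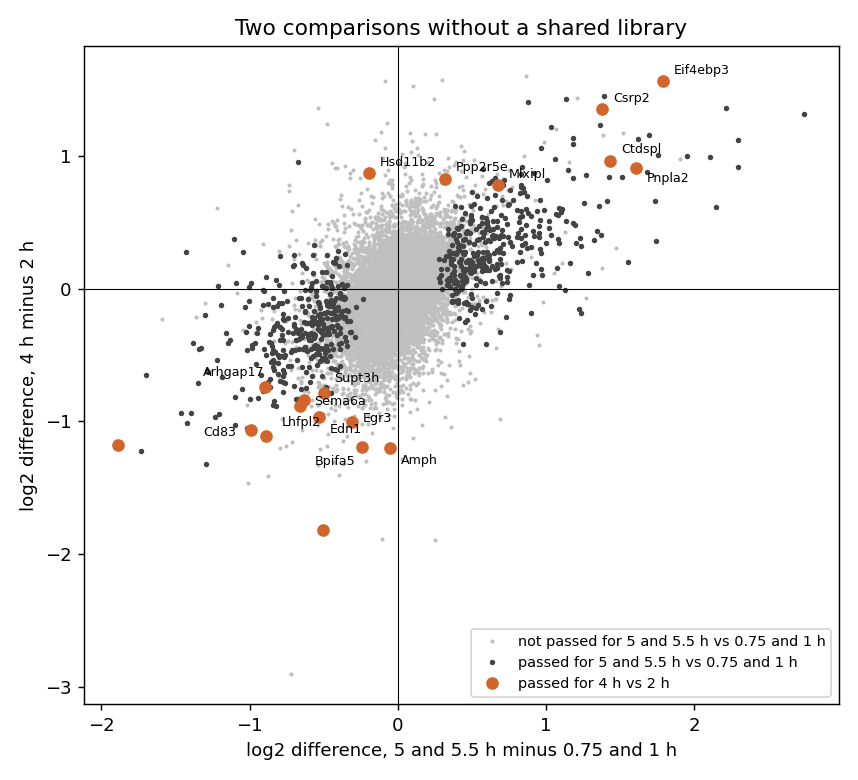
Each point is 1 of 9520 probe sets, with the log2 difference between 5 and 5.5 h and 0.75 and 1 h on the horizontal axis and that between 4 h and 2 h on the vertical axis; dark points passed in the first comparison and orange points in the second. Orange points for Eif4ebp3, Csrp2, Ctdspl and Pnpla2 lie far to the upper right, and those for Hsd11b2, Amph and Bpifa5 lie close to 0 on the horizontal axis.

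The genes of the first hour were followed in turn. Against 0 h, 59 probe sets (0.62%) had risen over 0.25 to 1 h, a comparison whose means also share no library with those of 4 h and 2 h. Of these 59, Edn1 alone fell between 2 h and 4 h and 0 rose by the adjusted test in limma, while at an unadjusted p under 0.05 5 were higher and 5 lower. A difference above 0 was measured for 26 and below 0 for 33, with a median of -0.04. Libraries did not overlap upward for 10 (16.9%) and downward for 8 (13.6%), against 9.6% and 11.6% of all probe sets. Measured differences in the first-hour set thus went both ways, as they did over all probe sets, and the set was not tested. Leaving out 4 h replicate 1 gave 1 upward call among the 59, and with 2 h replicate 1, 4 h replicate 2 or 4 h replicate 3 left out Edn1 no longer passed.

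Several first-hour genes, picked here after their values were seen, show the spread of these courses, and none passed between 2 h and 4 h. Il1b, an inflammatory cytokine, measured 202, 78.1 and 182 at 2 h and 68.6, 34.6 and 60.2 at 4 h (-1.32 ± 0.59, adjusted p = 0.296, limma). F3, tissue factor, which starts coagulation, measured 530, 467 and 566 and then 241, 325 and 278 (-0.88 ± 0.35, adjusted p = 0.234). Depp1, a FOXO-regulated gene linked to autophagy, measured 929, 754 and 998 and then 568, 554 and 506 (-0.70 ± 0.31, adjusted p = 0.289). For all 3 the libraries did not overlap. Edem1, which hands misfolded glycoproteins to degradation, lay on the other side, with 916, 1205 and 935 at 2 h and 1420, 1541 and 1287 at 4 h (0.48 ± 0.17, adjusted p = 0.175). Hexim1, which holds the transcription elongation kinase P-TEFb inactive, was lower than 0 h over the first hour (-0.60, adjusted p = 0.0166) and measured 196, 228 and 224 at 2 h and 334, 388 and 356 at 4 h (0.72 ± 0.19, adjusted p = 0.093).

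Genes known to be induced by glucocorticoids were the first list examined. The list was chosen with earlier results of these data known, so its shares beside those of all genes are no separate support. Of 32 listed genes, 29 were on the array and 27 were measured above the filter. None of the 27 passed in either direction (limma; 5 were higher and 0 lower at an unadjusted p under 0.05). Of all 7106 measured genes, 0.0985% passed upward and 0.127% downward. Libraries did not overlap upward for 8 of the 27 and downward for 2, against 10.5% and 11.4% of all genes, and the median difference was 0.23. The median was 0.14 without 4 h replicate 3 and 0.36 without 4 h replicate 1. A difference above 0 was measured for 20 of the 27, against 49.5% of all genes. In the interval of 5 and 5.5 h against 0.75 and 1 h, 7 of the 27 were higher and 1 was lower, against 4% and 3.62% of all genes.

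Sult1a1, a sulfotransferase that conjugates phenols and hormones, had the largest difference in that list. It measured 497, 790 and 468 at 2 h and 1170, 1883 and 1310 at 4 h (1.31 ± 0.36, adjusted p = 0.0935, limma). Fkbp5, a cochaperone that lowers the affinity of the glucocorticoid receptor for its ligand, measured 301, 380 and 303 and then 645, 702 and 628, a narrow spread at 4 h. Dusp1, a phosphatase that switches off MAP kinases, measured 425, 501 and 481 and then 916, 764 and 701 (0.74 ± 0.36, adjusted p = 0.336). Cdkn1a, the p21 brake on the cell cycle, measured 342, 193 and 349 and then 416, 805 and 549 (0.98 ± 0.45, adjusted p = 0.314). Lcn2, lipocalin-2, an iron-carrier-binding protein released by injured tubules, measured 1410, 390 and 1540 and then 1733, 1855 and 2053. Its difference of 0.98 ± 1.05 (adjusted p = 0.715) leaned on 2 h replicate 2 and was 0.35 without it. The others whose libraries did not overlap upward were Tsc22d3 (GILZ, an anti-inflammatory mediator, 0.46), Ddit4 (an mTORC1 inhibitor, 0.50) and Spsb1 (a ubiquitin ligase adaptor, 0.62).

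For several early targets no difference between 2 h and 4 h was detected. The kinase Sgk1, which raises sodium channel activity, measured 3019, 2587 and 3217 at 2 h and 2960, 3184 and 3362 at 4 h. The groups overlap and the difference was 0.11 ± 0.24, with a 95% interval from -0.37 to 0.59, after an increase of 2.55 from 0 h to 2 h (adjusted p = 8.1e-11, limma). The period gene Per1 differed by 0.08 ± 0.45 between 2 h and 4 h, Errfi1, a brake on the EGF receptor, by -0.04 ± 0.25, and Zfp36, which destabilises cytokine mRNA, by -0.09 ± 0.37, each after an increase from 0 h to 2 h that passed. Nfkbia, the inhibitor of NF-kappaB, measured 1127, 600 and 1071 at 2 h and 674, 736 and 724 at 4 h (-0.34 ± 0.53, adjusted p = 0.82). For such genes the intervals are too wide to say that the level was the same at both times. Of the other members, Cebpb, Cebpd, Rasd1, Klf15, Tsc22d1, Cdkn1c, Mt2A, Klf9, Igfbp1, Angptl4, Slc25a25 and Sds had overlapping libraries and differences from -0.24 for Rasd1 to 0.91 for Sds. The 2 members whose libraries lay lower without overlap were Pdk4, the kinase that shuts pyruvate dehydrogenase (-0.76, and -0.15 without 2 h replicate 2), and Irs2, an insulin receptor substrate (-0.41).

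Immediate early and stress transcription factors, the genes that answer growth signals and stress within minutes, held 28 listed, 26 on the array and 16 measured genes. Egr3 fell and none rose, with 2 genes higher and 3 lower without overlap, against 10.5% and 11.4% of all genes, and a median of -0.14. The median was -0.28 without 2 h replicate 2 and -0.03 without 2 h replicate 3. Egr1 measured 353, 127 and 378 at 2 h and 135, 126 and 101 at 4 h (-1.06 ± 0.70, adjusted p = 0.503, limma), so it was high in 2 h replicates 1 and 3 alone. The AP-1 member Fosl1 (-0.54) and Klf4 (-0.25) were lower without overlap. Klf2, a factor of endothelium and lymphocytes, was higher without overlap at 0.68 ± 0.35 (adjusted p = 0.374), and so was Klf10, a TGF-beta-induced repressor, at 0.62 ± 0.53 (adjusted p = 0.626). Jun, Junb, Klf6, Btg1, Srf, Gadd45a, Gadd45b, Gadd45g, Nr4a1 and Ier3 had overlapping libraries and differences from -0.68 for Klf6 to 0.34 for Ier3. Nr4a1, a nuclear receptor of the first hour, had mean levels of 528 at 0.5 h, 132 at 2 h and 137 at 4 h.

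Clock genes were measured for 13 of 21 listed, and none passed (limma; 1 was higher and 0 lower at an unadjusted p under 0.05). Libraries were higher without overlap for 5, namely Cry2 (0.47), Per2 (0.46), the heme receptor Nr1d1 (0.44), the deubiquitinase Usp2 (0.35) and Clock (0.22), and lower for Hlf (-0.34). Of all measured genes, 10.5% were higher and 11.4% lower without overlap, and the clock list was not tested as a set. Per2 measured 193, 199 and 231 at 2 h and 290, 301 and 276 at 4 h. Bhlhe40, Dbp, Nfil3, Per1, Bmal1, Nr1d2 and Tef had overlapping libraries and differences from -0.30 for Bhlhe40 to 0.20 for Tef. Time after injection and hour of day cannot be told apart here, since uninjected rats were sampled at 0 h only.

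Of 16 measured cytokines, chemokines and adhesion molecules none passed (limma; 0 higher and 4 lower at an unadjusted p under 0.05), 0 were higher and 7 lower without overlap, against 10.5% and 11.4% of all genes, and the median was -0.59. It was -0.93 without 2 h replicate 2 and -0.41 without 2 h replicate 1. Members that did not pass are named, here and in the lists that follow, after their values were seen. Cxcl10, an interferon-induced chemokine for T cells, measured 1659, 181 and 1982 at 2 h and 126, 101 and 95 at 4 h. Its difference of -2.90 ± 0.98 was the most negative of all probe sets tested and did not pass (adjusted p = 0.168, limma). Ccl20, a chemokine for dendritic cells and Th17 cells, measured 477, 92.8 and 621 and then 75.3, 67.1 and 90.1 (-1.89 ± 0.63, adjusted p = 0.165). For both, 2 h replicate 2 was close to the 4 h libraries and 2 h replicates 1 and 3 were far above them. Vcam1, an adhesion molecule for leukocytes, was even within each group, at 647, 610 and 618 and then 381, 453 and 334 (-0.68 ± 0.43, adjusted p = 0.479). Aif1, a macrophage gene named after its values were seen, measured 141, 140 and 113 and then 114, 34.9 and 73.6 (-0.89 ± 0.26, adjusted p = 0.104). Without 4 h replicate 2 its difference was -0.48. The 14 measured macrophage and neutrophil markers, of which 1 was higher and 2 lower without overlap, had a median of -0.01.

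**Figure D4:**
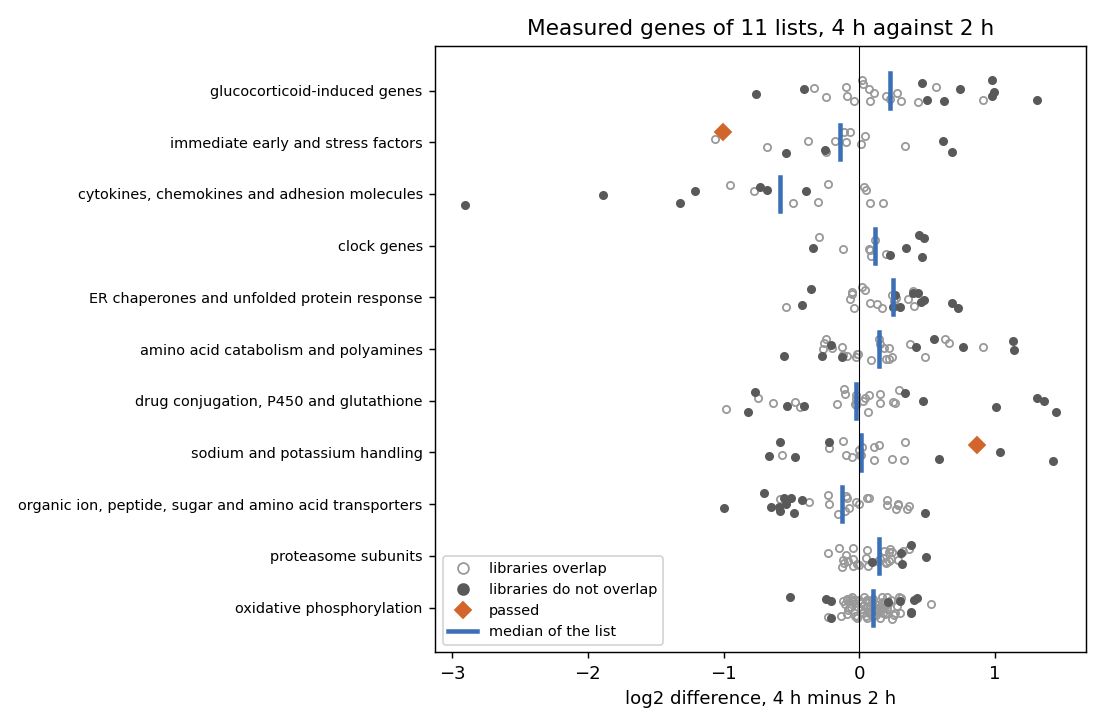
Log2 difference between 4 h and 2 h for each measured gene of 11 lists, with filled points where the 3 libraries of one time do not overlap those of the other, orange diamonds for genes that passed and a blue bar at the median of the list. Cytokines, chemokines and adhesion molecules have their median at -0.59, and the diamonds are Egr3 and Hsd11b2.

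Genes of sodium and potassium handling were measured for 23 of 30 listed. Hsd11b2 rose, none fell, and 4 were higher and 4 lower without overlap, against 10.5% and 11.4% of all genes, with a median of 0.01. Scnn1a, the alpha subunit of the epithelial sodium channel, measured 228, 91.7 and 218 at 2 h and 559, 369 and 470 at 4 h (1.42 ± 0.36, adjusted p = 0.0729, limma). It did not pass, and without 2 h replicate 2, its lowest library, the difference was 1.02. Cldn10, a tight junction protein that lets cations pass in the thick limb, measured 663, 737 and 675 and then 464, 416 and 418 (-0.67 ± 0.19, adjusted p = 0.0998). It passed downward in the interval of 5 and 5.5 h against 0.75 and 1 h (-1.18, adjusted p = 3.23e-08).

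Genes of pyruvate, fatty acid and ketone metabolism were measured for 24 of 30, of which Pnpla2 rose, none fell, and the median was 0.03 (-0.10 without 2 h replicate 1 and 0.21 without 2 h replicate 2). Renin-angiotensin and vasoactive genes were measured for 6 of 23, of which Edn1 fell, with 0 higher and 3 lower without overlap, against 10.5% and 11.4% of all genes, and a median of -0.49. The median was -0.27 without 2 h replicate 2, and 0.06 with the filter at the 60th percentile, which tested fewer genes. Agtr1a, the angiotensin II receptor, measured 268, 264 and 198 at 2 h and 174, 156 and 145 at 4 h (-0.59 ± 0.20, adjusted p = 0.173, limma).

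In amino acid catabolism and polyamine synthesis none of 32 measured genes passed (6 higher and 0 lower at an unadjusted p under 0.05, limma). Without overlap 5 were higher and 4 lower, against 10.5% and 11.4% of all genes, with a median of 0.15. The median was 0.02 without 4 h replicate 2, 0.09 without 2 h replicate 2 and 0.04 under quantile normalization. Gnmt, which uses up methyl groups from S-adenosylmethionine, measured 153, 190 and 90.9 at 2 h and 228, 463 and 292 at 4 h (1.14 ± 0.43, adjusted p = 0.213, limma). Prodh, the first enzyme of proline breakdown, measured 64.2, 82 and 111 and then 146, 230 and 212 (1.13 ± 0.45, adjusted p = 0.245). Got1, cytosolic aspartate aminotransferase, measured 661, 682 and 641 and then 910, 1356 and 1169 (0.77 ± 0.31, adjusted p = 0.245). For all 3 the groups did not overlap, and all 3 passed upward in the interval of 5 and 5.5 h against 0.75 and 1 h (1.19, 1.62 and 0.83).

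Of 31 measured genes of drug conjugation, P450 and glutathione none passed (5 higher and 3 lower at an unadjusted p under 0.05, limma). Without overlap 6 were higher and 4 lower, against 10.5% and 11.4% of all genes, with a median of -0.02. Por, the reductase that feeds electrons to P450 enzymes, measured 548, 508 and 526 at 2 h and 1011, 1247 and 968 at 4 h (1.01 ± 0.25, adjusted p = 0.0729, limma). Gstm2, a glutathione transferase with near-identical relatives that its probes may not separate, measured 312, 159 and 205 and then 649, 499 and 687 (1.45 ± 0.38, adjusted p = 0.0785).

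ER chaperones and the unfolded protein response had 27 measured genes, none of which passed (3 higher and 2 lower at an unadjusted p under 0.05, limma). Without overlap 9 were higher and 2 lower, against 10.5% and 11.4% of all genes, with a median of 0.25. The median was 0.13 without 2 h replicate 2 and 0.11 without 4 h replicate 2. Dnajc3, an inhibitor of eIF2-alpha kinases, measured 113, 119 and 166 at 2 h and 171, 282 and 206 at 4 h (0.68 ± 0.24, adjusted p = 0.175, limma).

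Of 32 measured organic ion, peptide, sugar and amino acid transporters none passed (0 higher and 9 lower at an unadjusted p under 0.05, limma), with 1 higher and 10 lower without overlap, against 10.5% and 11.4% of all genes, and a median of -0.13. The median was -0.27 without 2 h replicate 2 and -0.08 without 4 h replicate 2. Slc2a2, the glucose transporter GLUT2 of the proximal tubule, measured 268, 219 and 419 at 2 h and 134, 156 and 138 at 4 h (-0.997 ± 0.36, adjusted p = 0.192, limma). Slc16a6, a monocarboxylate transporter, measured 91.7, 99.4 and 91.7 and then 64.9, 61.7 and 58.6 (-0.56 ± 0.25, adjusted p = 0.294). Slc22a6, the organic anion transporter OAT1, overlapped (0.20 ± 0.20). Markers of the proximal tubule, which carries most of these transporters, had summed signals of 33648 to 38831 at 2 h and 35069 to 42670 at 4 h, ranges that overlapped; the part of tubule RNA in the list's values was not tested. The podocyte gene Nphs1 measured 63, 35.9 and 74.1 at 2 h and 91.5, 165 and 97.5 at 4 h (0.95 ± 0.27, adjusted p = 0.0998). It was the highest of 6 podocyte markers, whose differences began at -0.31 and had a median of 0.07, with 1 higher and 1 lower without overlap. Their summed signals overlapped, at 1236 to 1615 at 2 h and 1418 to 1693 at 4 h.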

How the data were processed

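Kidney total RNA was measured on Affymetrix arrays. The deposited values are intensities per probe set, which the authors scaled per array: as the deposited intensities show, each array's mean without its lowest and highest 2% was between 150.03 and 150.04. Which algorithm made them the labels do not state. The number of arrays limits the precision. Arrays a and b of 5 h replicate 1 were averaged, leaving 52 libraries. Control probe sets (57) were removed, and probe sets under the 40th percentile of the mean log2 level (an intensity of 52.3) were left out. The pseudocount, 7.63, was the 10th percentile of the intensities; it makes the differences of dim probe sets smaller than their fold changes. All 17 times entered 1 fit in limma 3.58.1 (R 4.3.3; moderation with a mean-variance trend, 2-sided, Benjamini-Hochberg over 9520 probe sets), tested on simulated data. A second array type, with no 4 h array, was not used here.

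Symbols came from the platform annotation, updated by gene identifier (12748 probe sets; 2 by accession, 33 kept as given, 312 with several symbols, 2771 with none). A gene is given by its brightest probe set in lists. Named genes are the passing ones with libraries not overlapping (up to 15 in each direction), the next by unadjusted p where under 10 passed, passing list members, and all glucocorticoid-induced, immediate early and clock genes; further genes, 22 in all, were chosen after their values were seen. The members and the 40 gene lists were chosen with earlier results of these data known. Alternatives varied the pseudocount, filter, scaling, libraries, weights and moderation.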

Additional observations from a re-analysis of the deposited data

Results flagged for a closer look

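In 6 cases, among 98 named genes checked, a single uninjected library at 0 h (n = 4) lay far from the other 3, as measured by its gap over the whole range against Dixon's 95% critical value; chance alone flags about 1 in 20 groups. Ppp2r5e was at 119 in 0 h replicate 1, with the others at 158 to 164. Klf15 was at 196 in 0 h replicate 1, with the others at 358 to 396. Edem1 was at 298 in 0 h replicate 2 (others 269 to 272), Per1 at 44.7 in 0 h replicate 2 (others 12.9 to 13.2) and Spsb1 at 21.1 in 0 h replicate 2 (others 5.92 to 7.77). Nfil3 was at 34.6 in 0 h replicate 3, with the others at 50 to 50.6. These libraries enter the means at 0 h and not those at 2 h or 4 h, though the spread of the shared fit uses all libraries.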

How the results depend on the processing

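The members' calls were sensitive to single libraries and to scaling, and the cause was not tested beyond the values given. Leaving out 1 library, or 2 h replicate 2 and 4 h replicate 2 together (chosen after seeing the data), gave 0 to 45 higher, 0 to 141 lower, 0 to 19 higher in both intervals, 0 to 23 lower in both, and 0 to 1 first-hour increases that passed in either direction. With 4 times the pseudocount 1 first-hour increase was higher. The filter at the 60th percentile gave 7 lower, 5 lower in both and 0 first-hour increases lower, and tested fewer probe sets. Quantile normalization gave 3 lower, 3 higher in both, 1 lower in both and 0 first-hour increases lower. Median centring gave 12 higher and 5 lower (70.6% of calls higher, against 36.8%), 8 and 3 in both, and 1 first-hour increase higher. With only the 6 libraries at 2 h and 4 h, 1 was higher and 0 lower. Array weights, whose fit warned of incomplete convergence, gave 773 higher and 959 lower, 168 and 136 in both, and 10 and 19 first-hour increases. Without arrays of letter b or c, 2 were higher and 0 lower, 2 and 0 in both, and 0 first-hour increases lower.

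Deviations of same-numbered libraries correlated across probe sets with r = 0.149, -0.049 and -0.131, and those of other pairs with r from -0.172 to 0.194. Deviations from a mean of 3 libraries are tied to each other, so these values cannot decide whether replicate numbers pair the samples. With the replicate block 5 were higher and 11 lower, 4 and 7 in both, and 0 first-hour increases lower. Robust moderation gave 7 and 12, and the smaller pseudocount of 1.91 gave 7 and 13.

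All 19 calls kept their sign throughout (13 of 13 where the stricter filter tested them). With groups that did not overlap, leaving out libraries could not have turned these signs. Single genes were followed through the alternatives for the named genes and the glucocorticoid-induced, immediate early and clock lists, not for the members of all lists. Of those followed that did not pass, 20 changed sign in some alternative. Their differences as reported ran from -0.24 for Rasd1 to 0.34 for Ier3. Under quantile normalization Sgk1 was at -0.014, Klf15 at -0.053, Tsc22d1 at -0.12 and Gadd45g at -0.013. Under median centring Zfp36 was at 0.0024, Errfi1 at 0.056 and Srf at 0.030. With array weights Cebpb was at -0.20, Errfi1 at 0.0075, Tsc22d1 at -2.8e-05, Nr4a1 at -0.11, Srf at 0.039, Nr1d2 at -0.040 and Dbp at 0.017. Without letters b and c Sgk1 was at -0.021, Cebpb at -0.44, Tsc22d1 at -0.11, Ier3 at -0.023, Dbp at 0.040 and Nfil3 at -0.13. With libraries left out, the range was -0.10 to 0.30 for Per1, -0.35 to 0.050 for Zfp36, -0.12 to 0.20 for Klf15, -0.62 to 0.13 for Cebpd, -0.52 to 0.34 for Cebpb and -0.13 to 0.047 for Errfi1. It was -0.44 to 0.036 for Rasd1, -0.14 to 0.13 for Tsc22d1, -0.41 to 0.047 for Junb, -0.16 to 0.55 for Ier3, -0.11 to 0.11 for Nr4a1, -0.31 to 0.14 for Gadd45b and -0.23 to 0.18 for Gadd45g. It was -0.17 to 0.016 for Srf, -0.084 to 0.35 for Bmal1, -0.086 to 0.25 for Nr1d2, -0.31 to 0.11 for Dbp, -0.10 to 0.41 for Tef and -0.11 to 0.17 for Nfil3. Of 40 list medians, 9 changed sign under quantile normalization or median centring and 19 with a single library left out. With those and with 2 h replicate 2 and 4 h replicate 2 left out together, 23 changed sign, which lay between -0.45 (liver markers) and 0.15 (proximal tubule markers) as reported. Probe sets near an intensity of 52.3, such as Egr3 and Amph, are limited by their dim signal.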

Other observations

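Other lists of genes held no member that passed, and their values complete the picture of what kidney RNA did between 2 h and 4 h. Extracellular matrix genes, the collagens and binding proteins around cells, had 7 higher and 3 lower without overlap of 32 measured, with a median of 0.01. Proteasome subunits, which degrade ubiquitin-tagged proteins, had 5 higher and 0 lower of 34 (median 0.14), and genes of gluconeogenesis and ammoniagenesis 4 and 1 of 12 (median 0.22). Oxidative phosphorylation had 6 and 4 of 83 (median 0.10), translation factors 3 and 1 of 24 (median 0.12), aminoacyl-tRNA synthetases 2 and 0 of 18 (median 0.16), ribosomal proteins 0 and 1 of 45 (median 0.06) and ribosome biogenesis factors 0 and 1 of 26 (median 0.06). Heat shock proteins had 1 and 1 of 19 (median 0.03), cholesterol and fatty acid synthesis 3 and 2 of 21 (median -0.01), and acute-phase genes 1 and 0 of 8 (median 0.07). Over all 7106 measured genes the shares without overlap were 10.5% higher and 11.4% lower.

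Among regulators, growth and cell cycle brakes had 4 higher and 3 lower without overlap of 24 (median 0.04), cell cycle and replication genes 1 and 2 of 14 (median -0.12), and IGF, growth factor and TGF-beta signalling 2 and 3 of 29 (median 0.03). Calcium, phosphate and vitamin D genes had 2 and 2 of 14 (median -0.21), aquaporins and the vasopressin receptor 0 and 0 of 6 (median -0.08), tubular injury markers 1 and 3 of 12 (median -0.06), and antigen presentation and interferon genes 2 and 3 of 18 (median 0.06). Cell type markers had 1 and 2 of 19 for proximal tubule (median 0.15), 3 and 1 of 11 for thick limb, distal tubule and collecting duct (median 0.08), 1 and 1 of 6 for podocytes (median 0.07) and 1 and 2 of 12 for endothelium (median -0.03). Markers of macrophages and neutrophils had 1 and 2 of 14 (median -0.01), of lymphocytes 0 and 2 of 3 (median -0.32) and of smooth muscle 0 and 0 of 6 (median 0.05). Those of other tissues were adrenal (0 and 1 of 1, median -0.45), adipose (0 and 0 of 1, median 0.34), liver (0 and 1 of 4, median -0.45, and -0.10 without 2 h replicate 2) and erythroid (0 and 0 of 3, median -0.19).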
